A study of Mus musculus with 135 samples.

Results

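The cortex of unstressed, untreated sickle mice was compared with that of mice of the normal genotype. The members are all cortex libraries labelled with no stress exposure and no treatment, 8 of the sickle genotype (SS) and 12 of the normal genotype (AA), which makes 20 of the 135 libraries in the series. A further library with the labels of an AA control has a title that names hippocampus and a tissue label that names cortex, and it was assigned to neither. Both genotypes are male Townes mice, in which human globin genes stand in place of the adult mouse globin genes, so the AA controls carry the same exchange with normal human globins and the SS mice carry the human sickle globin. The methods give an age of 6 months for the defeated mice of the first cohort, with undefeated controls matched to them in age, and give no separate age for the second cohort. None of the 20 mice met an aggressor (repeated social defeat, RSD) or received minocycline. Gene-level read counts were made from polyadenylated RNA of whole cortex, with 1 library per mouse, and whether the tissue had been flushed of blood before RNA extraction was not given in the sources used here.

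Sickle haemoglobin polymerises when it gives up oxygen, red cells break early, and the marrow and spleen answer with a raised output of young red cells. Reticulocytes, the youngest red cells in the blood, still hold messenger RNA for heme synthesis, the membrane skeleton and red cell enzymes, whereas mature red cells hold little. Blood vessels of the brain are lined by endothelial cells and wrapped by pericytes, and in sickle disease the endothelium meets free hemoglobin, hypoxia and adhesive red cells. A bulk library holds the RNA of all these cells together, so that fewer cells of a type and less RNA per cell cannot be told apart.

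Between 16295042 and 52501167 reads were counted on genes per control library, with medians of 36184300 in AA and 25866100 in SS. Cortical neuron markers summed to 2131 to 2378 CPM (counts scaled to a library total of 1000000) in the AA libraries other than 5844 and to 2167 to 2493 in SS. Mouse numbers fell into separate ranges, here called number series A (4 AA and 2 SS control mice) and B (8 AA and 6 SS), and the labels do not say what the ranges mark. Reads outside annotated genes were 3.79% to 5.67% of all reads in AA mice of series A and 4.68% to 10.3% in AA mice of series B. In SS mice they were 4.63% to 5.24% in series A, and at least 8.63% with a median of 9.79% in series B. Over both series the median was 6.91% in AA and 9.75% in SS, so this share was unevenly spread over the genotypes compared. Several libraries stood apart. The library labelled AA 5844 carried the levels of red cell genes seen in SS, as described below. AA 9631 held 1944 reads of the mouse beta-globin gene Hbb-bs, and SS 9903 had 1131 CPM of the choroid plexus gene Ttr. AA 5845 and AA 9838 held 731 and 636 CPM of the mitochondrial pseudogene Gm13340, against 13 to 28.9 CPM in the other control libraries.

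Differences were tested with the quasi-likelihood test of edgeR in a model of all 66 usable cortex libraries, with Benjamini-Hochberg adjustment over 22926 genes, and a gene was called at an adjusted p under 0.05. Of these genes, 49 were called (0.214%), 48 of them higher in SS (0.209%) and 1 lower (0.00436%). The erythroid lists held 12 of the 48 higher genes (median log2 fold change 2.96), and the vascular lists held 7, with log2 fold changes of 0.53 to 1.49. The median log2 fold change was 1.45 over the 48 genes and 0.00 over all genes tested. Without library 5844, 58 genes were called higher (0.253%) and 1 lower. Of the 48 genes, 46 were called in that fit too.

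Sequence is shown for the start regions of 5 called genes that were chosen because they hold a motif: Alas2 and Slfn14 a GATA motif, Rsad2 and Isg15 an interferon-type motif, and Apol11b both of these. RefSeq promoters were matched for 32 of the 48 genes, which have 37 starts in that table, and the 150 bases before each start were searched on both strands for 3 kinds of motif. The GATA motif was AGATAA, in which the first base could also be T. The CACCC motif was CCCCACCC, in which the third base could also be A. The interferon-type motif was a pair of GAAA words with any 2 bases between them. Capitals mark motif matches on either strand, and bases that lie in the first exon of the canonical GENCODE transcript were cut from the right end. Each stretch matched GRCm39 exactly once, and it is written 5′ to 3′ on the gene's own strand.
Alas2, chrX:149330263-149330370, plus strand: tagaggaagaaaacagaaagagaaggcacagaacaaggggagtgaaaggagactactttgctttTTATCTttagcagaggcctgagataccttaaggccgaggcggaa
Slfn14, chr11:83177553-83177702, minus strand: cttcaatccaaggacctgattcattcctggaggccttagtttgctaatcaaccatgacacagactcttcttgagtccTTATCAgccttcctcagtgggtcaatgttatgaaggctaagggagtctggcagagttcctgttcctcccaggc
Rsad2, chr12:26506452-26506601, minus strand: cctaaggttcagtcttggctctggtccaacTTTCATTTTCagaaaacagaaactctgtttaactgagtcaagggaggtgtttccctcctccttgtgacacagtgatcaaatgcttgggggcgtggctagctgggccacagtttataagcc
Isg15, chr4:156285304-156285425, minus strand: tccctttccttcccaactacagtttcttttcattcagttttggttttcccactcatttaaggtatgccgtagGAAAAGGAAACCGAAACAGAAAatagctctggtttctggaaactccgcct
Apol11b, chr15:77527488-77527636, minus strand: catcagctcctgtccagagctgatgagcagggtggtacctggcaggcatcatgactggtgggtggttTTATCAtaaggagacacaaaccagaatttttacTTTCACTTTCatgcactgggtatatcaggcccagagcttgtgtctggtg

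The 42 exonic bases cut from Alas2 held 2 overlapping CACCC matches. Isg15 held 3 overlapping matches of the interferon-type motif, and Rsad2 and Apol11b held 1 each. A GATA motif lay in 7 of the 37 windows (18.9%) and in 9.65% of all 32851 RefSeq windows of the same length. A CACCC motif lay in 6 (16.2%) against 8.46%, and the interferon-type motif in 4 (10.8%) against 1.59%. None of the 3 motifs lay in 23 of the 37 windows, those of Fam46c, Trim10 and Epb42 among them. In Fam46c and Epb42 all 150 bases lay in an exon of the canonical GENCODE transcript, and in Trim10 60 did. For Fam46c and Epb42 no sequence upstream of that exon was thus searched. All counts are over whole windows, exonic bases included. These are matches of letters only, and no binding was measured.

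Alas2, the first enzyme of heme synthesis in red cell precursors (ENSMUSG00000025270.14, chrX:149330371-149353634), checks the genotype labels. Its level was 54 CPM in the lowest SS library, 103 at the median and 122 in the highest. The 11 AA libraries other than 5844 lay between 2.61 and 11.2 CPM with a median of 3.81. The library labelled 5844 had 95.9 CPM, above 3 of the 8 SS libraries and far from every other AA library. With all libraries the mean was 97.1 ± 22.5 CPM in SS (SD, n = 8) and 12.6 ± 26.3 in AA (SD, n = 12), a log2 fold change of 2.90 ± 0.51 (SE, edgeR quasi-likelihood test, adjusted p = 0.000634). Without 5844 it was 4.21 ± 0.43. That library was singled out by its level of red cell genes, so for these genes the larger estimates and the separate ranges without it are partly fixed by that choice and are given as a description. The hippocampus of the same mouse had 55.5 CPM of Alas2, where the other 10 AA libraries reached at most 10.7 and the 7 SS libraries began at 46.3. The label was kept as deposited, and estimates of called genes without this library are given below beside those with it.

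Slc4a1 encodes band 3, the chloride and bicarbonate exchanger of the red cell membrane (chr11:102239650-102257029). SS libraries held 4.45 to 16.9 CPM with a median of 11.2, and AA libraries other than 5844 held 0.112 to 0.686 with a median of 0.258. The library labelled 5844 held 9.69 CPM, so it again lay inside the SS range. The log2 fold change was 3.26 ± 0.59 (adjusted p = 0.000879), and 5.06 ± 0.52 without 5844. Hba-x, the embryonic zeta-like alpha globin gene of the mouse (chr11:32226400-32228116), followed the same order, with 3.03 to 10.4 CPM in SS, 0.0381 to 1.10 in the 11 AA libraries and 4.76 in 5844. Its log2 fold change was 3.21 ± 0.56 (adjusted p = 0.000535), and 4.27 ± 0.53 without 5844. For all 3 markers every SS library lay above every AA library other than 5844.

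**Figure D1:**
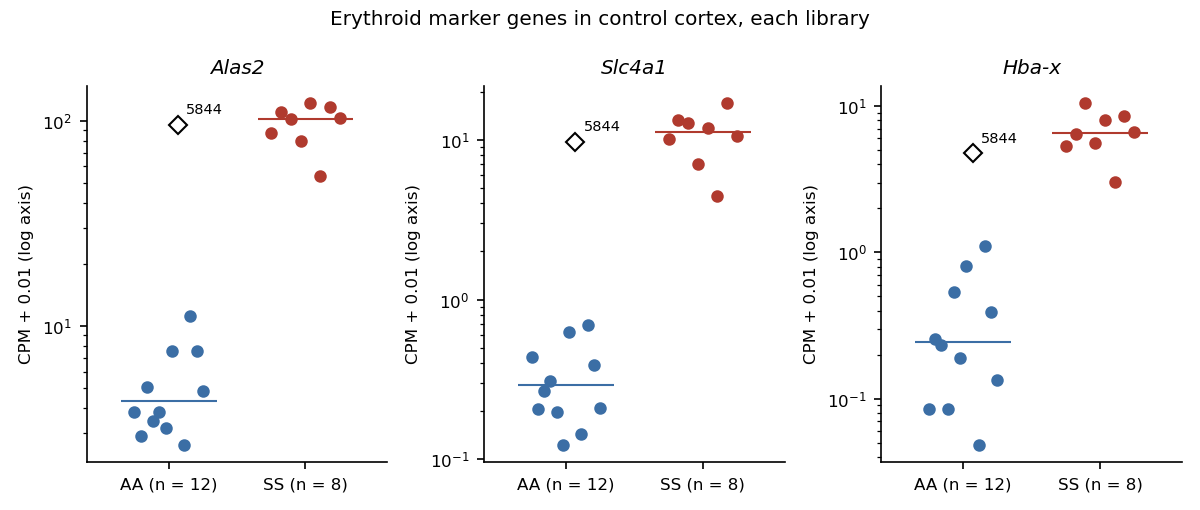
Level of Alas2, Slc4a1 and Hba-x in each control cortex library, in CPM plus 0.01 on a log axis. Each point is 1 mouse, lines are group medians over all labelled libraries, and the open diamond is the library labelled AA 5844, which lies among the 8 SS libraries in each panel while the other 11 AA libraries lie below them.

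Among genes of heme synthesis, Alas2 was the only 1 of 13 called, and the median log2 fold change of the list was 0.04, beside 0.00 over all genes tested. Fech, which inserts iron into the porphyrin ring, was 70.1 to 79.9 CPM in SS and 59 to 65.7 in AA without 5844, and its log2 fold change of 0.20 ± 0.05 missed the threshold (adjusted p = 0.0987). All 8 SS libraries thus lay above these 11 AA libraries, and 5844, at 72.0 CPM, lay inside the SS range.

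Of the red cell membrane genes, 4 of 17 members were called higher (5 without 5844) and none lower, Slc4a1 and Epb42 among them. The list's median log2 fold change was 0.23, and 13 of the 17 estimates were positive. Epb42, the membrane protein that ties band 3 to the skeleton, held 0.505 to 1.25 CPM in SS and at most 0.0615 in AA without 5844, with a log2 fold change of 3.03 ± 0.59 (adjusted p = 0.00327). Its estimate was 4.82 ± 0.56 without 5844.

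The list of erythroid regulators and reticulocyte genes had 6 of 22 members called higher, and its median log2 fold change was 0.17. Fam46c, also named Tent5c, a poly(A) polymerase active in late red cell formation, had the smallest p of all genes (chr3:100358944-100396702). Its SS libraries held 7.67 to 14.2 CPM and the AA libraries other than 5844 held 1.51 to 3.17. The log2 fold change was 1.87 ± 0.24 (adjusted p = 1.89e-06), and 2.22 ± 0.20 without 5844. Trim10, a ligase gene of terminal red cell formation, held 0.726 to 4.19 CPM in SS against at most 0.137, with a log2 fold change of 3.23 ± 0.60 (4.95 without 5844). Isg20, an RNA exonuclease that interferon induces and red cell precursors also use, had a log2 fold change of 2.37 ± 0.42 (3.22 without 5844), and Ube2l6, a conjugating enzyme of the ISG15 and ubiquitin pathways, had 1.40 ± 0.23 (1.68 without 5844). For both genes all SS libraries lay above the 11 other AA libraries, with Ube2l6 at 12.8 to 21.9 CPM in SS and 3.69 to 8.64 in AA.

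Bpgm, which makes the 2,3-bisphosphoglycerate that lowers the oxygen affinity of hemoglobin, held 46.7 to 81.5 CPM in AA without 5844. SS libraries held 76.3 to 127 CPM, and 7 of 8 lay above every AA library other than 5844. The log2 fold change was 0.65 ± 0.15 (adjusted p = 0.0416), and 0.74 without 5844. This call was lost in 18 of the 20 fits that leave out 1 control library. Nfe2, the erythroid and megakaryocyte transcription factor, was counted 2 to 13 times in SS and 0 to 2 times in AA without 5844, and its log2 fold change of 2.77 ± 0.55 (adjusted p = 0.00445) was not called without SS 5349. Without 5844 it was 2.99.

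Called genes outside these lists are described next, in an order set after their values were seen. Tspo2, a cholesterol transporter of the erythroid lineage, held 0.631 to 2.64 CPM in SS against at most 0.188 in AA without 5844 (log2 fold change 2.99 ± 0.53, adjusted p = 0.000634). E2f2, a cell cycle factor with a role in red cell maturation, held 1.80 to 4.04 CPM against 0.714 to 1.38 (log2 fold change 1.31 ± 0.22, adjusted p = 0.000354). Neither gene had an SS library inside the range of the 11 AA libraries. Slfn14, a ribosome-bound nuclease of reticulocytes, was counted 2 to 16 times per SS library and 0 to 2 times per AA library other than 5844, where it was counted 8 times (log2 fold change 2.99 ± 0.67, adjusted p = 0.0205). Ctse, the protease cathepsin E, had a log2 fold change of 1.75 ± 0.41 (adjusted p = 0.0334), and 6 of 8 SS libraries lay above every AA library other than 5844. The calls of Slfn14 and Ctse were lost in 5 and 14 of the 20 fits that leave out 1 control library. Bst1, an enzyme of the CD38 family found on myeloid and stromal cells, had a log2 fold change of 2.13 ± 0.41 (adjusted p = 0.00243). The unnamed gene models Gm10371, Gm32051 and Gm5127 were higher too, with log2 fold changes of 3.14, 2.50 and 1.5, and the calls of the last pair were lost in 5 and 17 of these fits. These gene models were counted 3 to 18, 3 to 15 and 2 to 18 times per SS library. In AA libraries other than 5844 they were counted at most 2, 5 and 7 times. Without 5844 the estimates were 3.96 for Tspo2, 1.46 for E2f2, 3.95 for Slfn14, 2.18 for Ctse and 2.45 for Bst1. For the gene models they were 3.83, 2.87 and 1.73.

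Apol11b belongs to the apolipoprotein L family, whose members bind lipids inside cells (chr15:77518146-77527487). SS libraries held 1.74 to 13.7 CPM with a median of 7.14, AA libraries other than 5844 held 0.0245 to 1.32, and 5844 held 8.13. Its log2 fold change was 3.03 ± 0.66 (adjusted p = 0.0139), and 4.84 ± 0.62 without 5844. The call was lost in 4 of the 20 fits that leave out 1 control library. It was the only 1 of 11 tested family members called. Apol11a, another member, had a log2 fold change of 2.50 ± 0.84 (adjusted p = 0.472), and the median of the list was 0.48.

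Interferon-stimulated genes gave 2 calls among 12 members, Rsad2 and Isg15, and the list's median log2 fold change was 0.44. Rsad2 encodes viperin, an antiviral radical enzyme (chr12:26492745-26506451). SS libraries held 6.28 to 14.8 CPM, the AA libraries other than 5844 held 0.881 to 2.36, and 5844 held 9.91. The log2 fold change was 2.34 ± 0.33 (adjusted p = 1.08e-05), and 2.95 ± 0.27 without 5844. Isg15, the ubiquitin-like protein that is attached to other proteins in the interferon response, held 1.86 to 7.77 CPM in SS against 0.517 to 2.36, with a log2 fold change of 2.0 ± 0.42 (adjusted p = 0.0101), and 2.39 without 5844. Usp18, which removes ISG15, had 0.65 ± 0.28 (adjusted p = 0.723) and was among the 10 members that did not pass. In library 5844, Rsad2 and Isg15 were inside the SS range, together with the erythroid markers above, and Usp18 at 0.473 CPM was below every SS library.

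Endothelial genes were the largest group outside the erythroid ones. Of 27 members tested, 5 were called higher and none lower, 26 had a positive log2 fold change (96.3%, against 49.8% over all genes tested), and the median was 0.29. Such a share was not particular to vessels. All 12 neuronal immediate early genes and all 10 meningeal fibroblast genes tested were positive too, with none called. The list summed to 673 to 845 CPM in AA without 5844 and to 871 to 1038 CPM in SS, so that no SS library overlapped these AA libraries, and 5844 had 930 CPM. Eng, a coreceptor for TGF-beta family ligands on endothelium, held 32.1 to 46 CPM in SS and 18.9 to 28.4 in AA without 5844 (log2 fold change 0.73 ± 0.12, adjusted p = 0.000203). Kdr, the main receptor for VEGF-A, held 21.7 to 30.7 CPM against 10.7 to 20.4 (log2 fold change 0.76 ± 0.16, adjusted p = 0.0123). In both genes the groups were separate only without 5844, which had 36.3 and 27.6 CPM, and the estimates without it were 0.78 and 0.85. The call of Kdr was lost in 5 of the 20 fits that leave out 1 control library.

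Sox17, an arterial endothelial transcription factor, had a log2 fold change of 0.79 ± 0.13 (adjusted p = 0.000328), with 6.64 to 13.4 CPM in SS and 3.14 to 8.25 in AA without 5844. Here 5844 stayed with the AA libraries, at 5.93 CPM. Foxf1, a forkhead factor of vascular and mesenchymal cells that the study names for this comparison, had 1.02 ± 0.20 (adjusted p = 0.00344), and 7 of 8 SS libraries lay above every AA library other than 5844. Esam, a junction protein of endothelium and platelets, had 0.53 ± 0.12 (adjusted p = 0.0205), a call that was lost in 12 of 20 such fits. Without 5844 the estimates were 1.06 for Foxf1 and 0.54 for Esam.

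Vwf, the von Willebrand factor that endothelium and platelets release in clotting, showed the largest vascular difference (chr6:125523737-125663642). SS libraries held 59.7 to 99.9 CPM with a median of 81.3, the AA libraries other than 5844 held 17.8 to 33.8 with a median of 22.6, and 5844 held 62.3. Its log2 fold change was 1.49 ± 0.20 (adjusted p = 7.31e-06), and 1.65 ± 0.19 without 5844. It was the only 1 of 14 members of the endothelial activation and sprouting list that was called, and the list's median was 0.33. Nos3, the endothelial nitric oxide synthase, had 0.45 ± 0.12 (adjusted p = 0.128), and Angpt2, a vessel-destabilising ligand, had 1.03 ± 0.30 (adjusted p = 0.195).

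Pericyte and smooth muscle genes had positive estimates in all 11 tested members, with a median of 0.41, and Kcnj8 alone was called. Kcnj8, a subunit of the ATP-sensitive potassium channel of pericytes, held 4.09 to 8.14 CPM in SS and 2.61 to 5.05 in AA without 5844 (log2 fold change 0.72 ± 0.16, adjusted p = 0.0186). That call was lost in 13 of 20 fits that leave out 1 library, and the estimate without 5844 was 0.74. Vtn, vitronectin, had 0.48 ± 0.13 (adjusted p = 0.0987). The summed list was 189 to 269 CPM in AA without 5844 and 270 to 336 CPM in SS.

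Several called genes on no list are known from vessels or their matrix, and they were assigned after their values were seen. Cxcl12, a chemokine made by endothelium and stromal cells, held 114 to 180 CPM in SS and 59.3 to 92.2 in AA without 5844, with 144 in 5844 (log2 fold change 0.86 ± 0.14, adjusted p = 0.000203). Ephb4, the venous ephrin receptor, had 0.58 ± 0.10 (adjusted p = 0.000328), and Acvrl1, an endothelial receptor for BMP9, had 0.46 ± 0.10 (adjusted p = 0.0209). Acvrl1 was 1 of 2 called genes in which all 8 SS libraries (20.4 to 25.1 CPM) lay above all 12 AA libraries (12.5 to 20.2 CPM), a pattern found in 0.0131% of the genes tested. The other was A930017M01Rik, at 24.3 to 31.7 CPM in SS and 16.9 to 22.9 in AA. The call of Acvrl1 was lost in 15 and that of A930017M01Rik in 19 of 20 fits that leave out 1 library. Smad6, an inhibitor of BMP signalling, had 0.98 ± 0.19 (adjusted p = 0.00385), and Nid2, a basement membrane protein, had 0.87 ± 0.18 (adjusted p = 0.00527). Slc22a8, an organic anion transporter of the blood-brain barrier, had 0.62 ± 0.11 (adjusted p = 0.00109), and Robo4, an endothelial guidance receptor, had 0.57 ± 0.12 (adjusted p = 0.00859). Without 5844 the estimates were 0.95 for Cxcl12, 0.61 for Ephb4, 0.47 for Acvrl1, 1.06 for Smad6, 0.96 for Nid2 and 0.63 for Slc22a8. The remaining called genes on no list, Angptl2, Nostrin, Hic1, Rcsd1 and Vil1, had log2 fold changes of 0.82, 0.69, 0.68, 0.48 and 0.98 (0.84, 0.75, 0.67, 0.48 and 1.12 without 5844), and these calls were lost in 5 to 18 of those fits.

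Hypoxia-response genes gave 2 calls among 19 members (3 without 5844), and the list's median of 0.02 was close to that of all genes. Adm, the vasodilator adrenomedullin, held 3.07 to 5.90 CPM in SS and 1.73 to 3.76 in AA without 5844 (log2 fold change 0.87 ± 0.17, adjusted p = 0.00334), and 0.95 without 5844. Vegfa, the growth factor for Kdr, held 67 to 147 CPM in SS and 40.6 to 101 in AA without 5844 (log2 fold change 0.73 ± 0.16, adjusted p = 0.0156). In Vegfa, 7 of 8 SS libraries lay above every AA library, and SS 5353 lay at 67 CPM inside the AA range. The library labelled 5844 had 74.7 CPM of Vegfa, also inside the AA range, and the call was lost in 4 of 20 fits that leave out 1 control library. Slc2a1, the glucose transporter of the blood-brain barrier, had 0.33 ± 0.13 (adjusted p = 0.665).

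**Figure D2:**
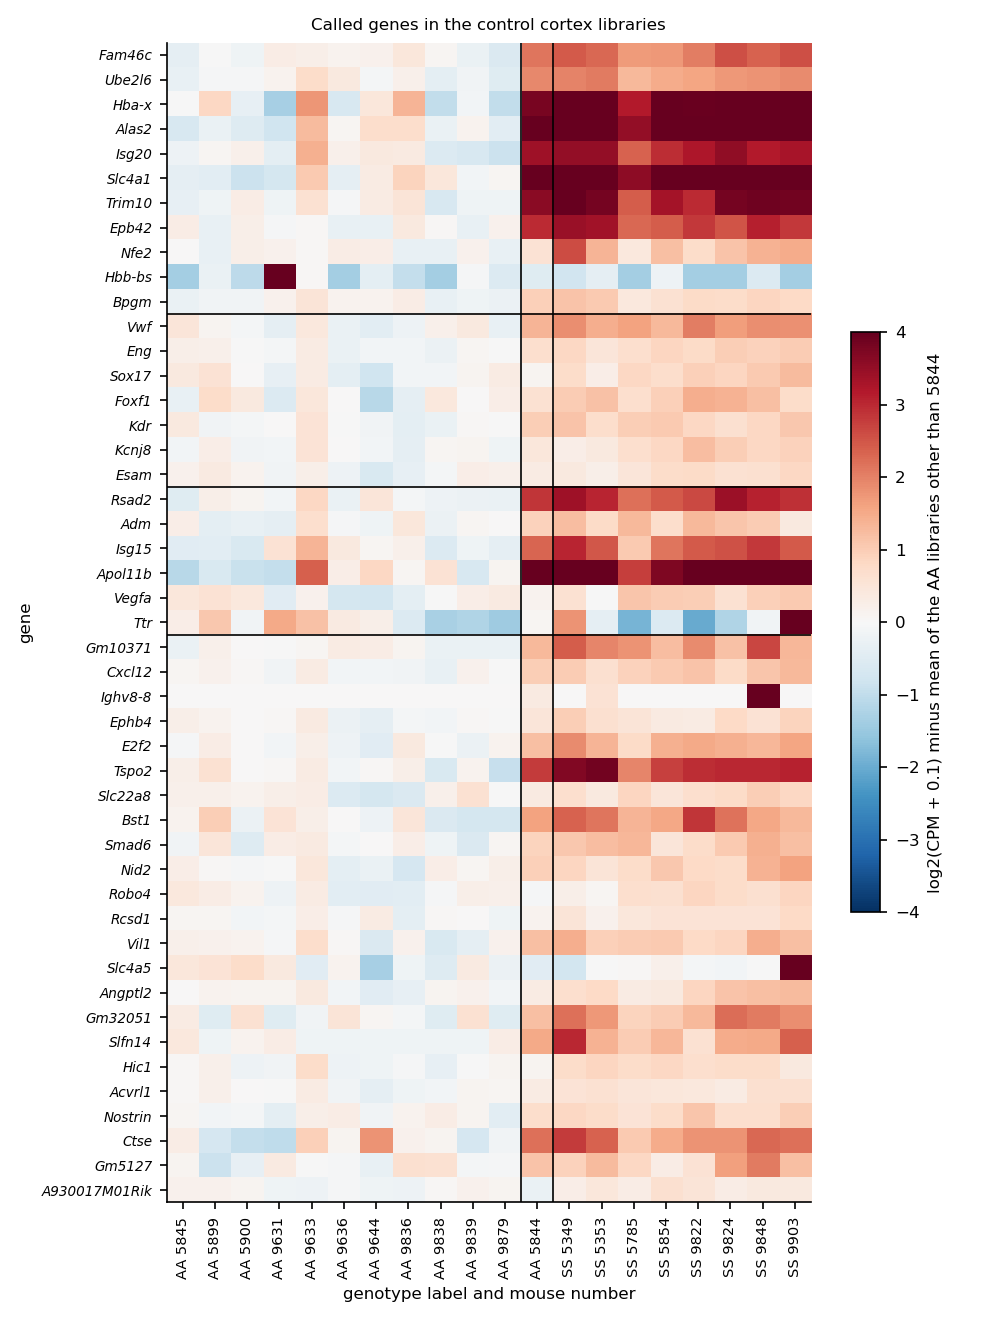
Called genes (47 of 49, rows, grouped as erythroid lists, vascular lists, other lists and genes on no list) in the 20 control libraries (columns), as log2(CPM + 0.1) minus the mean of the 11 AA libraries other than 5844. Red is higher than that mean, with the colour scale ending at 4 in either direction, the column of AA 5844 looks like the SS columns in most rows, and Hbb-bs, Ttr, Slc4a5 and Ighv8-8 each stand out in a single library.

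Of the 48 genes higher in SS, 39 had a level in 5844 at or above the lowest SS library, and in 34 this library was the highest of all AA libraries. Leaving it out raised the estimate of 40 of the 48 genes. All 8 SS libraries lay above every remaining AA library in 28 of the 48 genes, and 36 of all genes tested did so (0.157%). The 48 genes were chosen as higher in SS, and 5844 was singled out by its red cell genes. These counts are thus partly fixed by those choices and are a description only. The counts of 39, 34 and 40 were not made over all genes tested. The largest rises were those of Apol11b, Slc4a1, Epb42 and Trim10, and the estimates of Sox17, Robo4 and Vegfa moved to 0.78, 0.55 and 0.72.

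**Figure D3:**
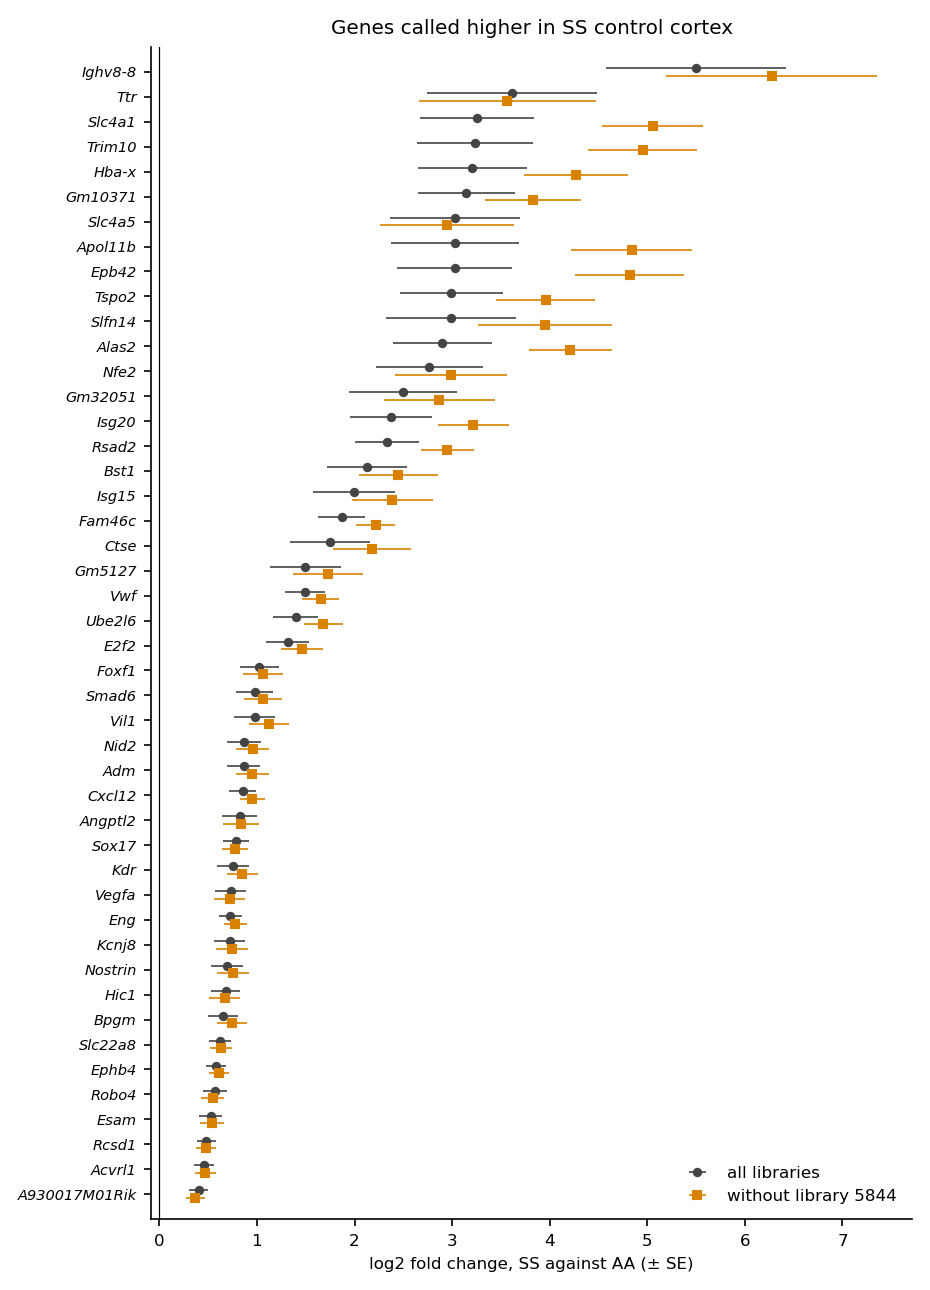
Log2 fold change of SS against AA with its SE for 46 of the 48 genes called higher, from all control libraries (circles) and without library 5844 (squares), in the edgeR model of all cortex groups. Slc4a1 lies at 3.26 with all libraries and 5.06 without 5844, and Vwf at 1.49 and 1.65.

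In 4 called genes the difference lay in 1 library. Hbb-bs, an adult beta-globin gene of the mouse (chr7:103475730-103482989), was the only gene called lower in SS (adjusted p = 0.00945), and AA 9631 held 1944 of its reads while every other control library held 0 to 6. The same library held 16.4 CPM of the mouse alpha-globin gene Hba-a1. Without AA 9631 no gene was called lower and 41 were called higher. Ighv8-8, an antibody heavy chain segment, was counted 55 times in SS 9848, 2 times in SS 5353, once in 5844 and not at all in the other 17 libraries, so its fitted estimate depends on the prior count and is not given. Slc4a5, a bicarbonate transporter, held 10.1 CPM in SS 9903 and had a median of 0.147 in SS and 0.149 in AA. Ttr, transthyretin of the choroid plexus, held 1131 CPM in SS 9903, 2.31 to 33.7 in the other SS libraries and 3.58 to 27.8 in AA. Without SS 9903 the log2 fold changes of Ttr and Slc4a5 were -0.42 and -0.32. The choroid plexus list had a median of 1.32 with SS 9903 and -0.42 without it.

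Without 5844, 12 further genes were called, all higher in SS, and the 9 with low counts lie outside the rule for named genes. Acer2, a ceramidase of the Golgi, held 22.4 to 45.2 CPM in SS and 7.69 to 27.1 in AA without 5844, with a log2 fold change of 1.02 ± 0.21 (adjusted p = 0.00398). The gene 8430408G22Rik had 1.14 ± 0.27 (adjusted p = 0.0275), and AA reached 7.41 CPM, inside the SS range of 5.34 to 10.3. Ankrd37, a hypoxia-inducible gene, had 0.64 ± 0.15 (adjusted p = 0.0238). Low-count genes made up the rest. Among them were Hbq1a, a theta globin gene (1.28 ± 0.25), Kel, the Kell blood group protease (3.29 ± 0.70), and the B cell gene Ms4a1 (2.11 ± 0.51). Others were Cyp4b1-ps2, 5430401H09Rik, AI662270, F930017D23Rik and the antibody segment Igkv4-63, whose 16 reads in SS came from SS 9824 alone.

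Ccr7, a chemokine receptor of lymphocytes and dendritic cells that the study names, was counted 4 to 9 times in the SS libraries and 0 to 6 times in the AA libraries. Its log2 fold change was 1.21 ± 0.44 (adjusted p = 0.574), and 1.31 ± 0.45 without 5844 (adjusted p = 0.491). The difference was not past the threshold at this depth.

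The mouse globin list otherwise held few reads. Of 6 tested members, 1 was called higher (2 without 5844) and 1 lower, and the median log2 fold change of -0.47 became 1.33 without AA 9631. The neutrophil and the T and B cell lists had raised medians, and no member was called with all libraries. Neutrophil genes had a median of 1.51 over 9 members, all positive and none called, and 0.87 without SS 5349. S100a8, a calcium-binding protein of neutrophils, held 0.162 to 1.25 CPM in SS and at most 0.248 in AA (log2 fold change 2.14 ± 0.53, adjusted p = 0.0660), and Ngp had 3.18 ± 0.82 (adjusted p = 0.0894). Ngp was counted 27 times in SS 5349, 0 to 6 times in the other SS libraries and 0 to 3 times in AA. T and B cell genes had a median of 0.86, with 10 of 12 positive and none called, against 2 called without 5844. Cd79a, part of the B cell receptor, had 0.87 ± 0.27 (adjusted p = 0.331), and the antibody constant gene Igkc had 1.63 ± 0.57 (adjusted p = 0.541).

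No member was called on the lists for heme and hemoglobin clearance (12 tested, median 0.02), iron storage and transport (13, median 0.04), NRF2 targets (10, median -0.06), microglia (14, median -0.05), activated myeloid cells (13, median -0.06) or astrocytes and their reactivity (12, median -0.05). Cp, the ferroxidase ceruloplasmin, had a log2 fold change of 0.33 ± 0.16 (adjusted p = 0.745), and Gfap, the filament protein of reactive astrocytes, had -0.46 ± 0.22 (adjusted p = 0.745). Neuronal lists had no calls either: cortical neurons (10 tested, median 0.00), inhibitory neurons (7, median -0.12), striatal neurons (8, median -0.11, and 0.10 without 5844), hippocampal granule cells (6, median -0.17) and neuronal immediate early genes (12, median 0.41). Oligodendrocyte genes had negative estimates in all 8 members and no call, with a median of -0.28. That median was -0.003 in number series A and -0.41 in series B. Meningeal fibroblast genes had a median of 0.33 over 10 members, and glucocorticoid response genes had -0.09 over 12. Striatal markers summed to 663 CPM in 5844 and to at most 453 CPM in the other AA libraries, and meningeal markers summed to 19.9 to 68.2 CPM in SS and 21.6 to 61.1 in AA without 5844. The part of tissue composition in the vascular and red cell results was not tested.

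**Figure D4:**
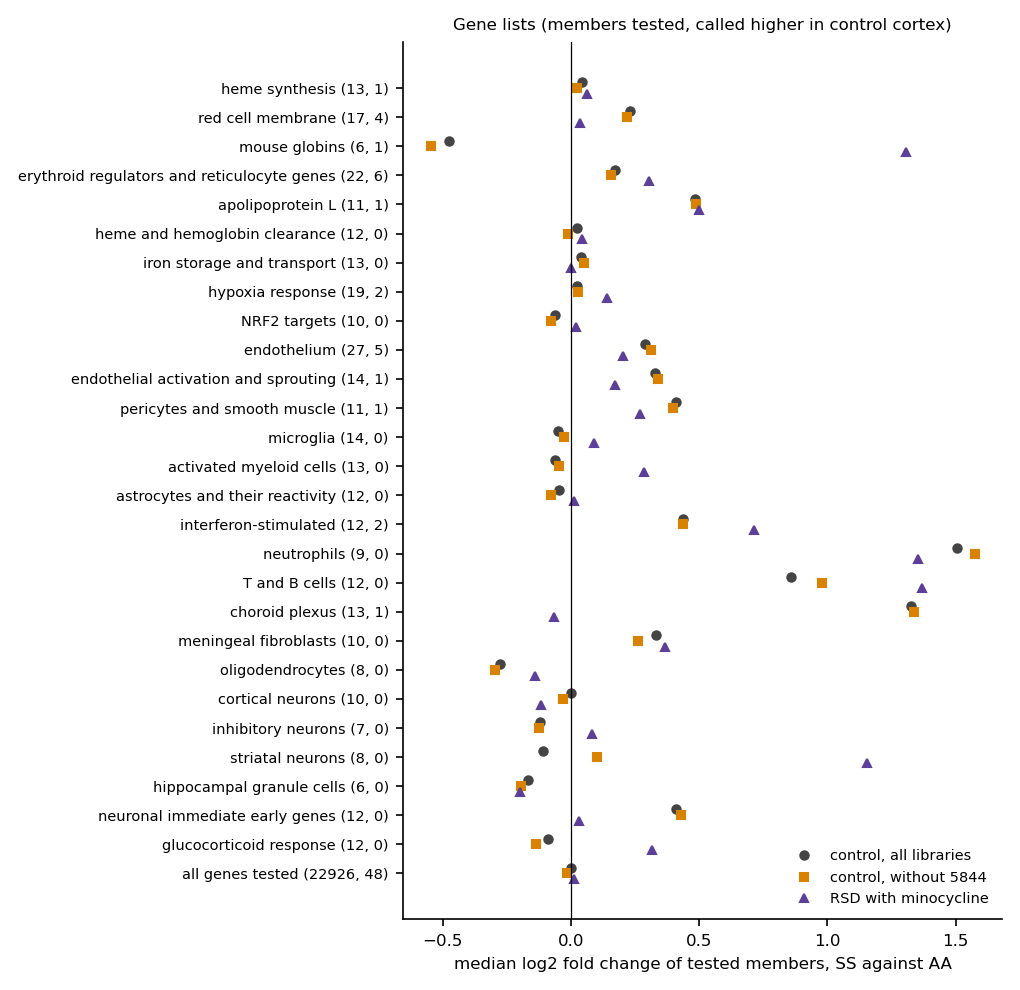
Median log2 fold change of SS against AA over the tested members of each gene list, in control cortex with all libraries (circles), without 5844 (squares) and in cortex after RSD with minocycline (triangles). Numbers after each name give the members tested and those called higher in control cortex. The choroid plexus median of 1.32 rests on SS 9903, and the median of all genes lies at 0.00.

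Within number series A, with 4 AA and 2 SS mice, 46 of 47 testable genes of the 48 kept their direction and 14 were called. In series B, with 8 AA including 5844 and 6 SS, 46 of 46 kept their direction and 31 were called. These mice were part of the fit that chose the 48 genes. The shared directions are thus partly fixed by that choice and are given as a description. Alas2 had log2 fold changes of 4.06 ± 0.37 in series A (adjusted p = 0.000116) and 2.48 ± 0.64 in series B (adjusted p = 0.0397). Vwf had 1.74 and 1.35, and Eng had 0.66 and 0.71. The fit of series B also called 215 genes lower, and in 213 of them AA 5845 and AA 9838 were the highest control libraries. None of the 215 was called lower without those libraries. With 5845 and 9838 left out and 5844 kept, no gene was called in series B (722 genes had an unadjusted p under 0.05), and with 5844 left out as well 30 genes were called higher, 27 of them among the 48.

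The same genotypes were also compared in other mice, namely 14 SS and 18 AA mice that were given RSD and minocycline, which share no library with the control groups. There 139 genes were called higher in SS (0.606%) and 4 lower (0.0174%). Of the 48 genes, 45 had a positive estimate there and 29 were called higher. Among the 139 were 6 of the 8 striatal neuron markers tested, with a list median of 1.15. In control cortex that list had no call and a median of -0.11. The part of tissue composition in the 139 calls was not tested. The label check was again imperfect. The library labelled AA 5853 had 51.9 CPM of Alas2, where the other 17 AA libraries held 3.01 to 19.3, and the library labelled SS 7078 had 6.47 CPM, where the other 13 SS libraries held 57 to 123. Without these and 5844, 171 genes were called higher (0.747%) and 10 lower (0.0437%).

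The 12 genes of the erythroid lists had a median log2 fold change of 2.96 in control cortex and 3.17 after RSD with minocycline, where 11 of them were called. Alas2 had 3.23 ± 0.42 (adjusted p = 2.06e-07) there, Slc4a1 had 3.92 ± 0.50 and Rsad2 had 2.60 ± 0.26. Apol11b had 4.90 ± 0.59 and Adm had 1.16 ± 0.13, both called. The 7 genes of the vascular lists had a median of 0.76 in control cortex and 0.42 after RSD with minocycline, each of the 7 was smaller there, and 4 were called. Vwf remained at 1.25 ± 0.16 (adjusted p = 2.06e-07). Foxf1 had 0.37 ± 0.16 (adjusted p = 0.464), Kdr had 0.33 ± 0.13 (adjusted p = 0.375) and Vegfa had 0.33 ± 0.13 (adjusted p = 0.366). Ttr and Slc4a5, which rested on 1 control library, had -1.10 and -0.23, and Ighv8-8 was also negative. Over the 48 genes 34 estimates were smaller than in control cortex, with medians of 1.45 and 0.84, but the genes were chosen on the control comparison. This count and that of the 7 vascular genes are thus a description only.

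**Figure D5:**
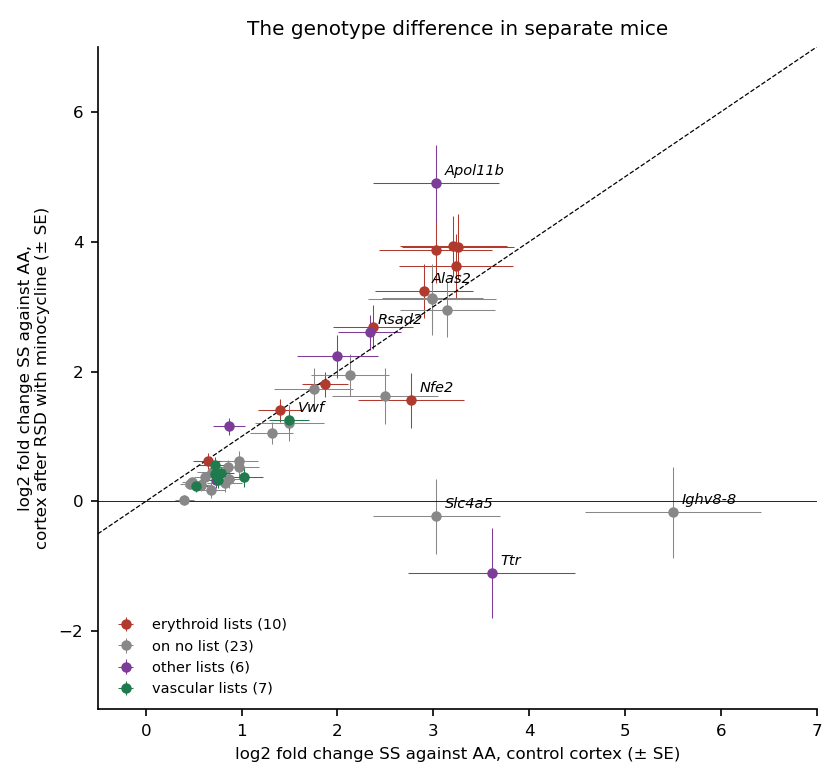
Log2 fold change of SS against AA with SE for 46 of the 48 genes called higher in control cortex (horizontal) and in cortex of separate mice after RSD with minocycline (vertical), coloured by gene list. The dashed line marks equal changes, Alas2 lies near it at 2.90 and 3.23, and Ttr, Slc4a5 and Ighv8-8 lie below 0 on the vertical axis.

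The difference between the genotype effects of both settings was tested in the same model. No gene was called by edgeR (smallest adjusted p = 0.709, with 652 genes at an unadjusted p under 0.05), and none by DESeq2, which had 707 genes at an unadjusted p under 0.05. For Foxf1, Kdr and Eng the unadjusted p of the difference was 0.0139, 0.0458 and 0.0481, and for Alas2 it was 0.607. Foxf1, Kdr and Eng were chosen on the control comparison, so smaller estimates elsewhere are partly fixed by that choice. No change in a vascular estimate was shown for any single gene after adjustment. Over all tested members, the endothelial list had medians of 0.29 in control cortex and 0.20 after RSD with minocycline. The pericyte and smooth muscle list had 0.41 and 0.27.

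How reads on exons shared with a gene on the opposite strand were assigned is not known, since the strand setting of the counting was not given in the sources used here. Ambiguous reads were tallied apart and left out, so such reads may be missing from the counts of both genes. In GENCODE M39, exons of such a partner cover 31.9% of the exonic bases of Adm, 31.1% of Isg15, 48.8% of Nostrin (Spc25), 26.1% of Vil1 (Usp37), 81.4% of Ankrd37 (Ufsp2), 70.7% of Angpt2 (Mcph1), 32.7% of Nos3 and 97.9% of Igkc. The adult mouse alpha-globin genes are also near-identical copies of each other, and so are the adult beta-globin genes. Counts of Hbb-bs and Hba-a1 against their copies are thus uncertain.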

How the data were processed

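Counts of reads per gene were deposited for 68 cortex libraries with a known group. Per the labels, the authors aligned directional single-end reads of polyadenylated RNA to GRCm39 with STAR and counted them on GENCODE genes, with versions and strand setting not given in the sources used here. Rows of unmapped, multimapped and unassigned reads were left out, as were 3 columns of the tables that matched no sample, 1 AA control sample whose title and tissue label disagree, and 2 libraries with identical counts under labels of different groups. Groups came from the labels. The methods describe defeated mice in cages of 3 SS or AA mice, and control cages without aggressors, so cage may go with genotype. The cage and litter of each mouse were not given in the sources used here, so neither was entered in the model. The p-values thus treat mice as independent, and they rest on a spread estimated over all cortex libraries in the model, not over the control mice alone. Counts were fitted with edgeR 4.0.16 in R 4.3.3 (TMM, filterByExpr with a minimum count of 10 and a minimum total of 15, quasi-likelihood F test), with 1 coefficient per cortex group, and genes were called at an adjusted p under 0.05. SE was the log2 fold change divided by the square root of F. CPM used the library total. DESeq2 1.42.0, other size factors, no filter, smaller models, added terms and each control library left out served as alternatives. The 27 gene lists (352 of 354 entries in the table, 1 by an older symbol) and the named genes, chosen as markers, called genes, called genes without 5844, list members with the smallest p and genes the study names, with every other called gene named besides, were chosen with earlier results of these data known. Gene positions are from GENCODE M39, matched by identifier for 54749 of 55416 genes, and promoters from RefSeq (GRCm38.p6) placed on GRCm39. Some genes are counted in the totals but not reported here by name or drawn. The model was tested on simulated data in which no library went against its label, so that test does not bear on libraries such as 5844. Counting error and mouse-to-mouse spread both enter the F test, and with 16295042 to 52501167 reads per control library a gene of a few reads carries wide errors.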

Additional observations from a re-analysis of the deposited data

Results flagged for a closer look

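Within the 8 SS libraries, the distance of the highest or lowest value from its neighbour, divided by the range, was checked with Dixon's criterion (0.526 for 8 values) on log2(CPM + 0.5) for the 77 genes described. In 16 genes it was exceeded, and chance alone flags about 1 in 20 groups. SS 9903 was highest for Ttr at 1131 CPM, for Slc4a5 at 10.1 CPM and for Tmem72 at 9.13 CPM, 3 genes of the choroid plexus, and it was lowest for Hic1 at 2.75 CPM. SS 5349 was highest for Nfe2 (0.648 CPM), Cyp4b1-ps2 (0.399 CPM), S100a8 (1.25 CPM), Ngp (1.35 CPM) and Ankrd37 (9.42 CPM). SS 9848 was highest for the antibody genes Ighv8-8 (2.04 CPM) and Igkc (9.97 CPM), and SS 9824 for the antibody gene Igkv4-63 (0.691 CPM). SS 5854 was highest for Ccr7 at 0.430 CPM. SS 5785 was lowest for Isg15 at 1.86 CPM, SS 5353 was lowest for Vegfa at 67 CPM, and SS 9822 was lowest for Angpt2 at 1.03 CPM. The 12 AA libraries are too many for this check, and the library labelled 5844 is described above with its values.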

How the results depend on the processing

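Of 49 genes called in control cortex, leaving out 1 control library at a time gave 29 (without SS 9903) to 59 (without AA 5844), and 25 of the 48 higher genes, 10 of the 12 on the erythroid lists and 4 of the 7 on the vascular lists among them, were called in all 20 such fits. Without AA 9636 and without SS 9848 the count was 32 each. Without AA 5845 and AA 9838 it was 28 (chosen after seeing the data, as were the settings that leave out these or 5844 within a series or with a term). Number series A alone gave 14 genes, series B alone 265, series B without 5844 403, series B without 5845 and 9838 0, and series B without all 3 gave 30, and the share of reads outside genes as a term without 5844 gave 75. The other settings stayed within 1.5 times of 49. A model of only the control groups called 43 higher and 6 lower of 17512 genes tested, which moved the split of directions. After RSD with minocycline, 143 genes were called, and 82 in a model of only those groups, where fewer libraries inform the spread. The difference between settings had no call under any of 7 alternatives. Leaving out 1 library gave ranges of -0.42 to 3.80 for Ttr, -0.32 to 3.21 for Slc4a5 and -0.50 to 3.09 for Tmem72 (log2 fold change). Direction was reversed for Ttr with DESeq2 (-0.41) and without SS 9903 (-0.42), for Slc4a5 with DESeq2 (-0.30), in series A (-0.33) and without SS 9903 (-0.32), and for Tmem72 with DESeq2 (-0.41), in series A (-0.11) and without SS 9903 (-0.50). The cause was tested only for SS 9903, by leaving it out. No paired analysis was possible because AA and SS mice share no mouse numbers. Low counts limit Slfn14, Nfe2, Ccr7, Gm10371, Gm32051 and Gm5127.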
